A study of Rattus norvegicus with 9 samples.

Results

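The comparison set rats with an untreated intracerebral haemorrhage (ICH) against sham-operated rats 21 days after surgery and covered all 530 tRNA-derived fragments in the tables. It compared 6 of the 9 libraries of the series, 3 labelled ICH and 3 labelled sham, chosen by those labels alone. The animals were male Sprague-Dawley rats of 180 to 220 g. The ICH rats received 0.5 U of collagenase type VII in 2.5 µl of saline in the right globus pallidus, and the sham rats received 2.5 µl of saline by the same operation. Neither group received the herbal decoction that the other 3 libraries (ICH + BYHWD) stand for. RNA came from the brain tissue around the injection site, and inserts of 15 to 50 nt were selected. The labels do not say whether a library is 1 rat or a pool of rats, so the p-values below measure the spread between libraries. The tables hold tRNA-derived fragments only, so the tissue could not be checked against cell type markers. In such bulk tissue, fewer cells of a type and less of a fragment per cell cannot be told apart.

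Transfer RNAs carry amino acids to the ribosome, and nucleases also cut them into stable small RNAs. Cuts in the anticodon loop, made by angiogenin in stressed mammalian cells, leave long stress-induced fragments called tiRNAs. Cuts elsewhere in the mature or precursor tRNA leave the shorter tRNA-derived fragments, or tRFs, and both classes are abundant in brain. Collagenase digests the matrix around small vessels, so that blood enters the tissue. The identifiers, such as AS-tDR-000052, are those of the tables, which pair them with no sequence, fragment type or parent tRNA, so the fragments are described by level, by number of table rows and by their neighbours in the row order.

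In the levels of their fragments, the 6 libraries did not separate cleanly by label. Their totals did, at 530827 to 735460 tags in sham and 888167 to 1066616 in ICH. Every ICH library was thus deeper than every sham library, and effects of depth and of group cannot be told apart here. A typical fragment differed by a median of 0.24 to 0.30 on the log2 scale between 2 sham libraries and by 0.23 to 0.39 between 2 ICH libraries, over the 311 fragments listed in all 9 libraries and after TMM scaling, a correction of library size for composition. Between a sham and an ICH library the same median was 0.19 to 0.53. The most similar pair of the 15 was sham 3 and ICH 1, at 0.19, so 1 sham library lay closer to an ICH library than to either other sham library. ICH 2 had the lowest level (deposited TPM, a count scaled to its library total) of the 6 libraries for 209 of the 319 fragments listed in all 6, and ICH 3 had the highest for 107.

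The first question was whether the tags moved between abundant and rare fragments. Fragments were ranked by their mean share of the listed tags over the 6 libraries. Ranks 1 to 10 held 44.5%, 46.7% and 46.2% of the listed tags in sham 1, 2 and 3 and 46.6%, 48.0% and 41.9% in ICH 1, 2 and 3. The groups overlapped, and the means of 45.8% ± 1.15 in sham and 45.5% ± 3.16 in ICH (SD, n = 3) differed by far less than the spread (two-sided exact permutation p = 0.9). Ranks 11 to 50 held 25.3% ± 0.83 in sham and 26.4% ± 0.83 in ICH, ranks 51 to 150 held 15.7% ± 0.42 and 15.2% ± 1.66, and ranks above 150 held 13.2% ± 0.60 and 12.9% ± 2.25. For these 3 classes the exact permutation p was 0.3, 0.7 and 0.8, and over the 10 such measures tested every adjusted p was 0.9. With 3 libraries against 3, the test cannot go below 0.1.

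**Figure D1:**
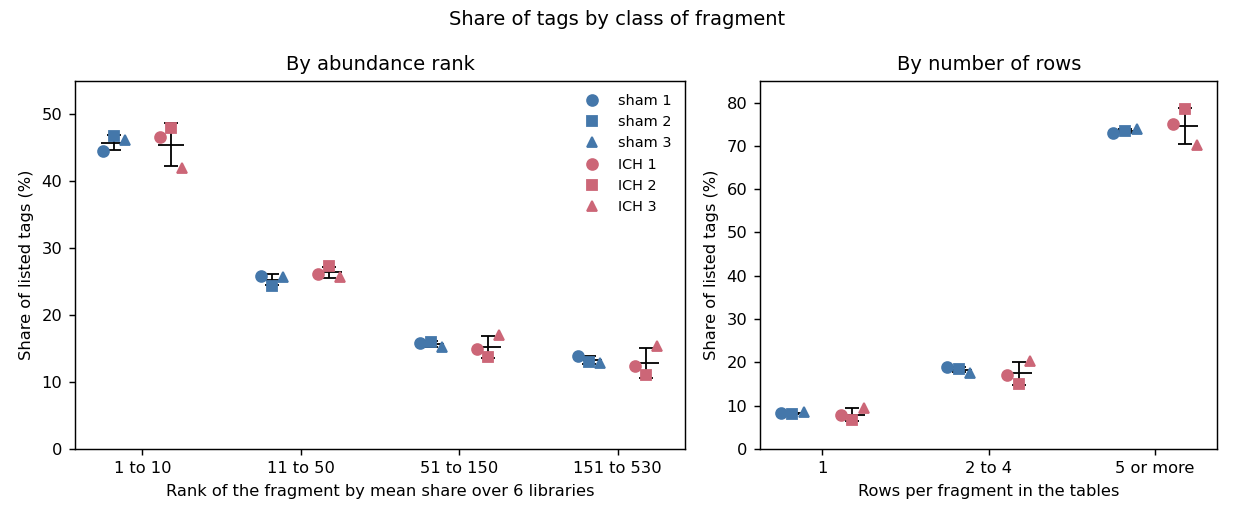
Share of listed tags (%) held by 4 classes of abundance rank (left) and by 3 classes of rows per fragment (right), 1 point per library, with the group mean and SD as bars. The ICH points spread more widely than the sham points in 6 of the 7 classes, and the groups overlap in every class.

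What differed was the evenness of single ICH libraries. The effective number of fragments, the count of equally abundant fragments that would give the same Shannon diversity, was 96.9, 91.6 and 92.3 in sham 1, 2 and 3. It was 85.2, 70.1 and 112 in ICH 1, 2 and 3, so the ICH libraries lay on both sides of sham (means 93.6 ± 2.87 and 89.1 ± 21.2, exact permutation p = 0.7). The same was seen in the number of fragments needed for 50% of the listed tags, which was 12 or 13 in the sham libraries but 12, 10 and 16 in ICH 1, 2 and 3. For 90% it was 182, 170 and 180 in sham and 173, 144 and 197 in ICH. Without ICH 2 the difference in the effective number turned from -4.46 to 5.05, and without ICH 3 it was -15.9.

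The number of rows on which a fragment stands in the tables, from 1 to 37 and equal in every library, gave no separation either. The 183 fragments on 1 row held 8.24% ± 0.13 of the listed tags in sham and 7.92% ± 1.39 in ICH. The 184 fragments on 2 to 4 rows held 18.3% ± 0.63 and 17.4% ± 2.73, and the 163 on 5 or more rows held 73.5% ± 0.51 and 74.6% ± 4.12 (SD, n = 3). The exact permutation p was 0.7 for each class. The sham libraries had 73.0%, 73.4% and 74.0% in fragments on 5 or more rows, whereas ICH 2 had 78.5% and ICH 3 had 70.3%, above and below all sham libraries. Without ICH 2 the difference in that class turned from 1.17 to -0.75 percentage points.

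Within ranks 1 to 10, members had opposite values. AS-tDR-000052, the most abundant fragment, held 3.18%, 2.90% and 11.8% of the listed tags in sham 1, 2 and 3 and 15.1%, 17.6% and 7.90% in ICH 1, 2 and 3. Sham 3 lay above ICH 3, so the groups overlapped. The difference of the means was 7.59 percentage points, 10.5 without sham 3, 5.55 without ICH 2 and 10.4 without ICH 3. Ranks 2 to 10 together held 41.3%, 43.8% and 34.4% in the sham libraries and 31.4%, 30.4% and 34.0% in the ICH libraries. Every ICH library lay below every sham library, although sham 3 and ICH 3 were nearly equal. The means were 39.8% ± 4.89 in sham and 32.0% ± 1.89 in ICH (SD, n = 3). Because this class was set apart after its values were seen, no test is given. The shares add to a fixed total, so a higher share of AS-tDR-000052 lowers all others. As a share of the library total, which also holds that fragment, the difference was -4.26 instead of -7.88 percentage points. With AS-tDR-000052 taken out of the listed tags it was -5.30.

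**Figure D2:**
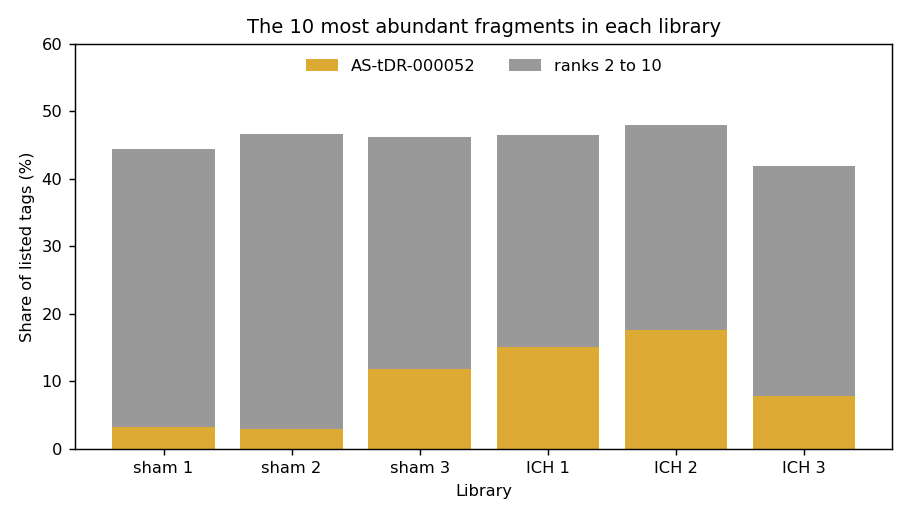
Share of listed tags (%) held by AS-tDR-000052 and by the fragments of ranks 2 to 10, stacked, in each of the 6 libraries. The total stays between 41.9 and 48.0%, while AS-tDR-000052 holds about 3% in sham 1 and 2 and 7.90 to 17.6% in the other 4 libraries.

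The other 9 of the 10 most abundant fragments differed among themselves. AS-tDR-001297 was at 82314, 69451 and 71451 TPM in sham and 76115, 57120 and 57754 TPM in ICH. AS-tDR-007556 was at 35712, 40378 and 27395 TPM in sham and 23523, 19350 and 34387 TPM in ICH, and AS-tDR-007881 at 36489, 37515 and 27482 against 23279, 17699 and 33132 TPM. For both, ICH 1 and 2 lay below all sham libraries and ICH 3 lay within them. AS-tDR-007639 likewise had low ICH 1 and 2, with 25337, 26175 and 21934 TPM in sham and 17789, 12504 and 27744 TPM in ICH, but there ICH 3 was the highest of the 6. AS-tDR-007683 and AS-tDR-007744 had another order, with their highest level in ICH 2 (51069 and 34527 TPM) and their lowest in ICH 3 (16835 and 6551 TPM). AS-tDR-007516, AS-tDR-007579 and AS-tDR-007895 had ICH means of 30525, 17416 and 13314 TPM against 31738, 18859 and 15630 TPM in sham. None of the 10 passed the edgeR test, and their lowest adjusted p was 0.507.

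The share of all tags that the tables list at all also includes AS-tDR-000052. It was 71.2%, 71.3% and 77.1% in sham 1, 2 and 3 and 79.8%, 80.6% and 73.0% in ICH 1, 2 and 3, or 73.2% ± 3.40 and 77.8% ± 4.197 (SD, n = 3, exact permutation p = 0.2). With that fragment left out of the listed tags but kept in the library total, the difference turned from 4.56 to -1.64 percentage points. All 3 ICH libraries then lay below the lowest sham library (p = 0.1 by the exact permutation test, its floor). This step lowers a library more the more of the fragment it holds, so nothing is read from the change of sign or the separation.

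Fragment by fragment, no difference between ICH and sham passed the test. The test was edgeR's quasi-likelihood test on the deposited counts. It was fitted over all 9 libraries, so the ICH + BYHWD libraries enter the filter, the scaling and the estimate of the spread. Between ICH and sham, 0 of 455 fragments tested were higher and 0 lower at an adjusted p under 0.05 (0% of those tested). The smallest adjusted p was 0.316. Before adjustment, 24 with p under 0.05 were higher (5.27%) and 17 lower (3.74%), or 31 and 12 with RLE scaling. DESeq2 called 20 higher and 8 lower at an adjusted p under 0.05, limma-voom and limma with trend called 0, and edgeR without sham 3 called 40 and 4. The share with an unadjusted p under 0.05 was 15.0% in ranks 11 to 50, 14% in ranks 51 to 150 and 6.89% in ranks above 150, where fewer fragments are listed in every library, and 0 of 10 in ranks 1 to 10, beside 9.01% of all tested. By rows it was 8.76%, 10.6% and 7.64% for 1, 2 to 4 and 5 or more rows, all near that background.

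The sizes of the differences were not spread evenly. Of the 319 fragments listed in all 6 libraries, 148 had a fitted log2 fold change between -0.5 and 0 and 93 between 0 and 0.5. Above that, 9 lay between 0.5 and 0.8, 4 between 0.8 and 1, and 44, or 13.8%, above 1, that is more than 2-fold higher in ICH. On the lower side 17 lay between -0.5 and -1 and 4 below -1. So with TMM scaling far more fragments were over 2-fold higher than over 2-fold lower, 44 against 4. The bins were not counted with other scaling. These bins differ in width and were set after the values were seen, and whether the 44 form a separate group was not tested. In deposited TPM the median ratio of ICH to sham over the same 319 was 0.899. There the groups did not overlap for 12 fragments above and 30 below. Of the 44, 18 had an unadjusted p under 0.05, beside 5.27% of all fragments tested, and nothing is read from this since the fold comes from the same fit.

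**Figure D3:**
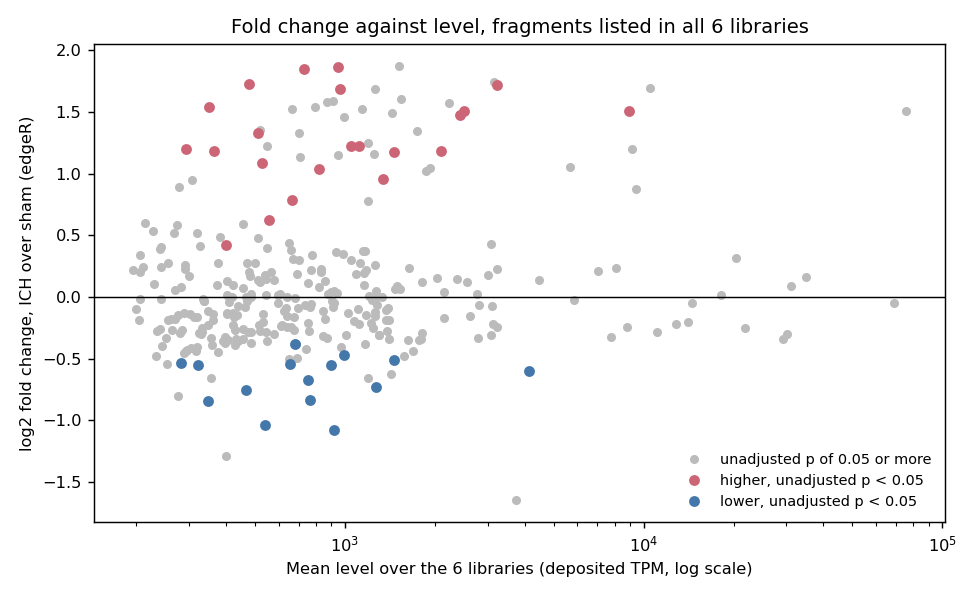
Fitted log2 fold change of ICH over sham (edgeR, TMM scaling) against the mean level over the 6 libraries (deposited TPM, log axis), 1 point per fragment listed in all 6 libraries. Above a log2 fold change of 1 lie 44 fragments, while the main body lies around 0. No fragment passes an adjusted p of 0.05.

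These 44 fragments were chosen by their fold, so their values are a description. They held 8.24%, 7.03% and 23.0% of the listed tags in sham 1, 2 and 3 and 28.9%, 37.2% and 17.8% in ICH 1, 2 and 3. Sham 3 had more than ICH 3, and sham 1 and 2 had less than any other library. The difference of the means was 15.2 percentage points, 20.34 without sham 3, 10.6 without ICH 2 and 20.31 without ICH 3. Without AS-tDR-000052 the values were 5.05%, 4.13% and 11.2% in sham and 13.8%, 19.6% and 9.92% in ICH, in the same order. In 37 of the 44 the level in sham 3 was above both other sham libraries, beside 25.7% of all 319 fragments, with a median of 2.49 times their mean. In 40 of the 44 ICH 3 was the lowest ICH library, beside 21.3% of all, and in 42 ICH 2 was the highest of all 6. In 10 of the 44 the lowest ICH level exceeded the highest sham level in TPM, beside 12 of all 319 (3.76%). The ICH + BYHWD libraries lay between the extremes, at 22.3%, 15.8% and 26.2%.

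AS-tDR-008347 is an example, at 2360, 2468 and 12377 TPM in sham 1, 2 and 3 and 14778, 23946 and 6887 TPM in ICH 1, 2 and 3. AS-tDR-008475 was at 787, 650 and 3615 TPM in sham and 4692, 7026 and 2211 TPM in ICH. In both, sham 3 exceeded ICH 3. A few of the 44 did not have a high sham 3. AS-tDR-007804 was at 436, 287 and 371 TPM in sham and 977, 1531 and 774 TPM in ICH, and AS-tDR-002023 at 680, 380 and 347 against 1253, 1992 and 1020 TPM. AS-tDR-007471, which stands on the most rows, 37, was at 363, 158 and 232 against 685, 896 and 525 TPM. In these 3 fragments the groups did not overlap. All 3 also varied widely within the treated group, at 1265, 1920 and 949 TPM in ICH + BYHWD 2 and at most 581 TPM in ICH + BYHWD 1 and 3. AS-tDR-000550 was the exception in the other direction, at 5642 TPM in ICH 3 alone and 935 to 1339 TPM in the other 5 libraries, although ICH + BYHWD 1 was also high at 7493 TPM.

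The 10 higher fragments with the smallest p included AS-tDR-007804 and AS-tDR-007471, with log2 fold changes of 1.85 (SE 0.63) and 1.73 (SE 0.65). AS-tDR-008621 was at 1507, 1165 and 1545 TPM in sham and 3714, 2622 and 2006 TPM in ICH (log2 fold change 1.18, SE 0.37). AS-tDR-000299 was at 265, 243 and 593 TPM in sham and 623, 738 and 709 TPM in ICH, or 1.09 (SE 0.38). The groups overlapped in neither, although sham 3 came close to ICH 1 for AS-tDR-000299. AS-tDR-006095 was at 990, 632 and 1328 TPM in sham and 1497, 1698 and 1920 TPM in ICH, or 0.96 (SE 0.34), again without overlap, and 0.60 without sham 2. AS-tDR-007592 was at 292, 151.03 and 170 against 552, 645 and 285 TPM, or 1.54 (SE 0.51). AS-tDR-007656 was at 366, 460 and 708 against 679, 646 and 1132 TPM, or 0.79 (SE 0.28). AS-tDR-000243 was at 396, 505 and 446 against 565, 383 and 1039 TPM, or 0.63 (SE 0.23), and 0.38 without ICH 3. These last 3 overlapped in TPM. AS-tDR-007988 (575, 399 and 580 against 1552, 1767 and 891 TPM) did not, and AS-tDR-007825 is described with the listing below. The edgeR adjusted p was 0.507 for each of these 10.

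The 10 lower fragments with the smallest p are among the 17 lower ones at an unadjusted p under 0.05. Over these 17 the median fold was 1.60 with a median SE of 0.22 on the log2 scale. For the 24 higher ones it was 2.43 with a median SE of 0.51. Both lists were chosen by p, so a small fold enters only with a small SE, and nothing is read from this contrast. AS-tDR-007227 was at 880, 807 and 546 TPM in sham and 352, 239 and 403 TPM in ICH. AS-tDR-000393 was at 711, 614 and 492 against 344, 260 and 369 TPM, and AS-tDR-008072 at 1891, 1818 and 1189 against 902, 674 and 1120 TPM. In all 3 every ICH library lay below every sham library, and sham 3 was the sham library closest to ICH. AS-tDR-008072 had a log2 fold change of -0.73 (SE 0.18, edgeR adjusted p = 0.458).

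Other lower fragments kept this order. AS-tDR-000600, the most abundant of the 10, was at 5984, 5258 and 4235 TPM in sham and 3316, 2254 and 3780 TPM in ICH, and its log2 fold change was -0.60 (SE 0.19). AS-tDR-007228 was at 1134, 1060 and 855 against 619, 405 and 513 TPM, or -0.83 (SE 0.25). AS-tDR-002163 was at 933, 847 and 646 against 547, 411 and 539 TPM, or -0.54 (SE 0.17). None of these 3 overlapped. AS-tDR-000584 was at 1883, 1880 and 1543 against 1225, 803 and 1406 TPM, or -0.51 (SE 0.19), and AS-tDR-007703 at 751, 895 and 746 against 563, 406 and 727 TPM, or -0.38 (SE 0.14), both without overlap but with ICH 3 close to sham 3. AS-tDR-009636 was at 1657, 1503 and 650 against 509, 323 and 884 TPM, or -1.07 (SE 0.35), and overlapped. The edgeR adjusted p was 0.507 for these 6, and AS-tDR-009151 is described with the listing. Among the fragments at an unadjusted p under 0.05 that were listed in all 9 libraries, sham 3 was the sham library nearest to the ICH mean in 16 of 22 higher and 13 of 15 lower ones, beside 54.3% of all 311.

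**Figure D4:**
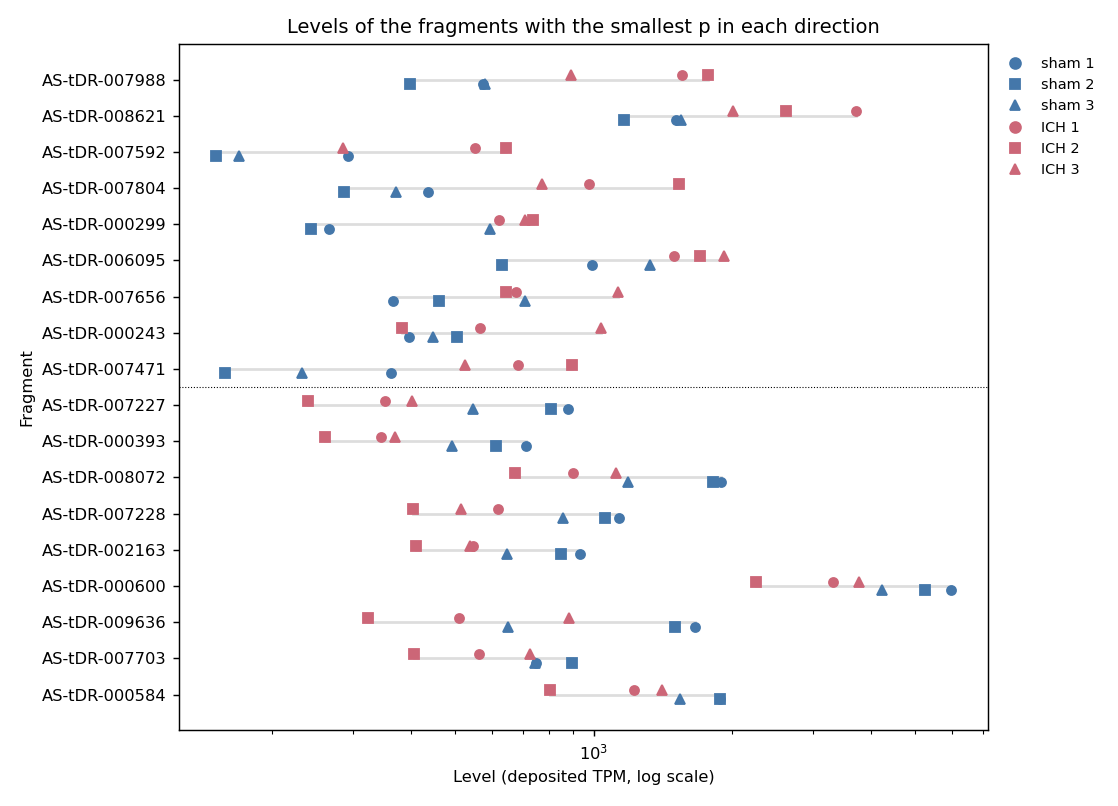
Levels (deposited TPM, log axis) of the 18 fragments with the smallest p that are listed in all 6 libraries, 9 higher in ICH above the dotted line and 9 lower below it, 1 point per library. Sham 3 lies next to the ICH points in most of the lower fragments, and ICH 2 is the lowest of the 6 in all 9 of them.

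The groups did not overlap in deposited TPM for 22 fragments above (4.84%) and 38 below (8.35%) among the 455 tested, together 13.2%. On the TMM scale, where the library size of ICH 2 is multiplied by 0.647, 31 lay above (6.81%) and 54 below (11.9%), together 18.7%. By class in TPM the share was 0% in ranks 1 to 10, 15.0% in ranks 11 to 50, 17.0% in ranks 51 to 150 and 12.1% in ranks above 150. For fragments on 1, 2 to 4 and 5 or more rows it was 11.7%, 13.04% and 14.6%, near the share of all fragments tested.

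Which fragments the tables list followed the libraries more than the groups. A fragment is listed in a library only from about 134 to 152 TPM, and a 0 was read as below that minimum. Sham 1, 2 and 3 listed 412, 392 and 423 of the 530 fragments and ICH 1, 2 and 3 listed 427, 400 and 428. Above 152 TPM, the highest minimum of the 6 libraries, the numbers were 410, 388 and 408 in sham and 409, 382 and 421 in ICH (402 ± 12.2 and 404 ± 19.98, SD, n = 3, exact permutation p = 0.9). As many fragments, 90, were listed in more ICH than sham libraries as in more sham than ICH libraries. Read at that 1 common minimum the numbers were 82 and 100.

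Several of the mixed listings named the same libraries as the levels did, but not all. Of 26 fragments listed in all 3 ICH libraries and in 1 sham library, 23 were listed in sham 3. Of 23 listed in 1 sham and 2 ICH libraries, 21 were in sham 3, 22 in ICH 1 and 19 in ICH 2. In the other direction, 30 fragments were listed in all sham libraries and in 2 ICH libraries, and 28 of these were missing from ICH 2. Of 12 listed in 2 sham and 1 ICH libraries, all 12 were listed in ICH 3. By contrast, 30 fragments were listed in 1 sham and 0 ICH libraries, and 21 of these were in sham 1, 4 in sham 2 and 5 in sham 3. The lowest count above 0 was 76 in sham 3 and 107 to 146 in the other libraries, and the part of depth in these listings was not tested.

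Complete separation by listing was rare. AS-tDR-007825, AS-tDR-007504, AS-tDR-007918 and AS-tDR-009666 were at 0 in all 3 sham libraries and listed in all 3 ICH libraries. AS-tDR-007504 was at 262, 355 and 184 TPM in ICH 1, 2 and 3, a mean of 1.80 times the mean lowest TPM listed in the sham libraries, and AS-tDR-007825 at 362, 425 and 254 TPM, or 2.34 times. AS-tDR-007918, at 139, 185 and 191 TPM, and AS-tDR-009666, at 169, 177 and 158 TPM, were only 1.16 and 1.13 times that level, and 1 value of AS-tDR-007918 lay below it. AS-tDR-009151 was the only fragment with the opposite pattern, at 201, 203 and 213 TPM in sham and 0 in all ICH libraries, 1.48 times the mean lowest TPM listed there.

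Fragments found next to each other at least 2 times in the row order were joined into sets, since such neighbours share their place in the tables. This gave 41 sets of 2 or more fragments and 233 sets when fragments left alone are counted too, and what the members of a set share is not given. The 28 sets of 6 or more members held 302 fragments and 89.6% ± 0.10 of the listed tags in sham and 90.2% ± 1.72 in ICH. Of these 28, 10 had a higher and 18 a lower mean share in ICH. The shares add to a fixed total, and the set with AS-tDR-000052 alone was higher by 9.24 percentage points. Nothing is therefore read from this count of directions. Of 181 sets tested with edgeR on summed counts, 0 were higher and 0 lower at an adjusted p under 0.05. Before adjustment, 13 higher (7.18%) and 5 lower (2.76%) sets, 9.94% together, had a p under 0.05. That fit includes the ICH + BYHWD libraries, and with the 6 libraries alone the numbers were 4 higher and 8 lower. The share did not overlap between groups in 8.29% of the sets tested. DESeq2 called 14 higher and 3 lower sets, limma-voom and limma with trend called 0, and edgeR without sham 3 called 11 and 2.

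Among the 28 larger sets, 4 had an unadjusted p under 0.05, all higher in ICH. The set of 17 with AS-tDR-008475 held 1.04%, 1.10% and 1.55% of the listed tags in sham and 1.89%, 2.09% and 1.56% in ICH. It was the only one of the 28 whose groups did not overlap in share, and sham 3 and ICH 3 differed by less than 0.01 percentage points. Its log2 fold change was 0.80 (SE 0.30, edgeR adjusted p = 0.477), and 0.53 without ICH 2. Its members differed in sign, since 8 of the 15 tested had a fitted log2 fold change above 0 and 7 below, and over the 9 listed in all 9 libraries the median was -0.17. AS-tDR-008475 itself made up 18.2% of the sham and 31.9% of the ICH tags of the set. The set of 13 with AS-tDR-008347 held 1.40%, 1.47% and 2.92% in sham and 3.11%, 4.16% and 2.57% in ICH (log2 fold change 0.99, SE 0.41, with 1.54 without sham 3 and 0.58 without ICH 2). The set of 9 with AS-tDR-000052 held 4.39%, 4.197% and 14.4% in sham and 18.1%, 21.4% and 11.2% in ICH, or 1.35 (SE 0.59). In both of these sets sham 3 was above ICH 3. The set of 6 with AS-tDR-006095 held 0.40%, 0.32% and 0.40% against 0.40%, 0.37% and 0.62%, or 0.45 (SE 0.18). The edgeR adjusted p was 0.477 for all 4. For the set with AS-tDR-000052 the log2 fold change was 2.33 without sham 3 (edgeR adjusted p = 0.0387) and 0.97 without ICH 2 (edgeR adjusted p = 0.787). Without ICH 2 the difference in share fell from 1.71 to 0.93 percentage points for the 28 fragments with AS-tDR-002004.

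The 2 most abundant sets had lower mean shares in ICH. The 8 fragments with AS-tDR-007683 held 27.3%, 33.3% and 23.8% of the listed tags in sham and 20.5%, 23.7% and 24.3% in ICH. The 6 with AS-tDR-001297 held 21.1%, 16.8% and 15.4% against 15.7%, 11.6% and 12.9%. Both overlapped, and their fitted log2 fold changes were near 0, at -0.09 (SE 0.23) and -0.20 (SE 0.26). For the first set the difference in share was -5.30 percentage points with all libraries and -2.73 without sham 2. For the second it was -4.33, and -2.67 without sham 1, where 1 member, AS-tDR-009298, stood at 13662 TPM beside 1327 to 2035 TPM in the other 5 libraries. Without that member the set held 16.9% ± 2.04 in sham and 13.2% ± 2.065 in ICH.

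Members of 1 set differed in their pattern across libraries. In the set with AS-tDR-007683, 3 members (AS-tDR-007683, AS-tDR-007744 and AS-tDR-007412) together held 6.84%, 11.3% and 8.51% in sham and 7.54%, 13.3% and 3.53% in ICH. The other 5 held 20.5%, 21.9% and 15.3% in sham and 12.9%, 10.4% and 20.8% in ICH. ICH 2 was thus the highest library for the 3 and the lowest for the 5, and ICH 3 was the lowest for the 3, which the sum over the set did not show. In the set with AS-tDR-008347, 4 members held 0.46%, 0.44% and 1.95% in sham and 2.31%, 3.54% and 1.21% in ICH. The remaining 9 held 0.94%, 1.03% and 0.97% against 0.80%, 0.62% and 1.36%. In the set with AS-tDR-000052, 6 members carried the difference, and the other 3 held 0.51% ± 0.07 in sham and 0.48% ± 0.16 in ICH (SD, n = 3). These splits were made after the values were seen.

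**Figure D5:**
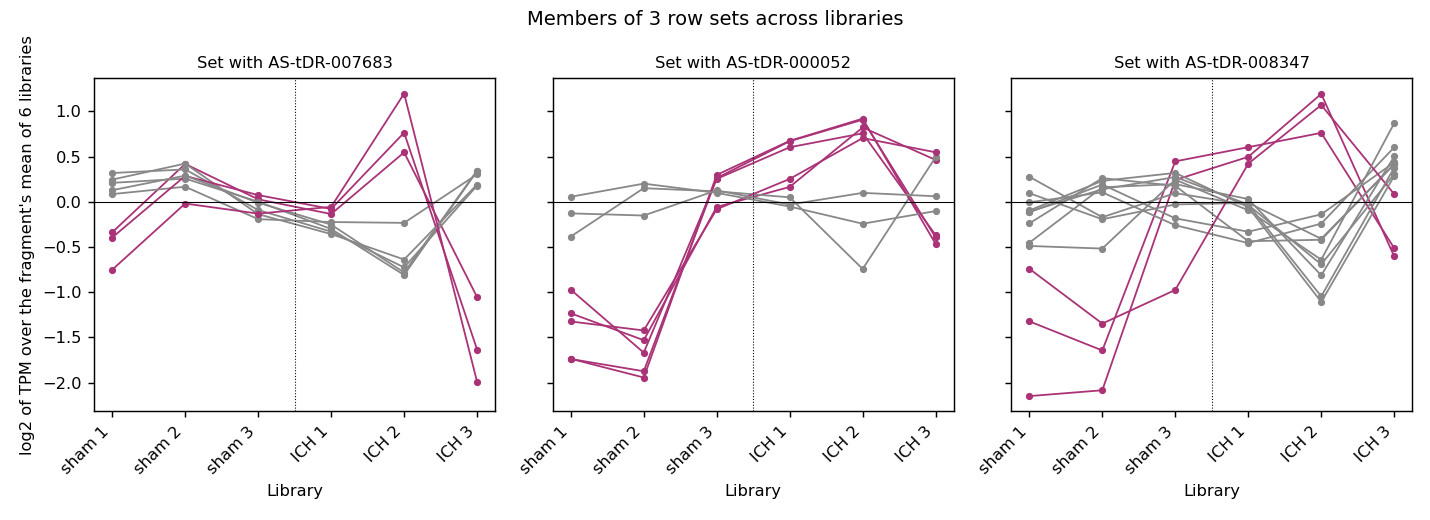
Level of each member in 3 row sets as log2 of its TPM over its own mean of the 6 libraries, 1 line per fragment listed in all 6 libraries (AS-tDR-009656 and AS-tDR-010061, with a 0, are left out), lines only joining the points of a fragment. Purple marks the members whose library pattern stands apart. They are high in ICH 2 and low in ICH 3 in the first set and low in sham 1 and 2 in the others. AS-tDR-007804, also purple, is low in sham 3 too.

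The 44 fragments above 2-fold were found in 12 sets of 2 or more fragments and 8 sets of 1. The set with AS-tDR-002004 held 10 of them among its 28 members, beside members with the opposite sign such as AS-tDR-000393 and AS-tDR-008072, and its median log2 fold change was 0.06. The set of 16 with AS-tDR-000600 held 2 of the 44, AS-tDR-000603 and AS-tDR-000586, and also 4 fragments that were lower at an unadjusted p under 0.05, beside 3.74% lower of all fragments tested. AS-tDR-000603 was at 757, 685 and 1526 TPM in sham and 2021, 2240 and 1504 TPM in ICH. The set of 22 with AS-tDR-007579 held none of the 44. In 16 of its members the fitted fold was below 1, beside 233 of all 455 fragments tested. At an unadjusted p under 0.05, 3 of the 22 were lower, to be read against the same 3.74%.

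The median precision of a fold change was similar across the rank classes, among fragments listed in every library. For the fragments listed in all 9 libraries the median SE of the log2 fold change was 0.25 over all, and it was 0.25, 0.28, 0.26 and 0.24 in ranks 1 to 10, 11 to 50, 51 to 150 and above 150. At the median, the 95% interval of a fold reached a factor of 1.498 to either side. The median fitted log2 fold change was -0.02 over the 455 tested and -0.01, 0.14, 0.00 and -0.06 in the 4 rank classes.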

How the data were processed

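The deposited table of each library lists fragment identifiers with tag counts and TPM, per the file headers. The authors deposited raw tag counts in whole numbers. The deposited TPM column is the count divided by 1 total per file and scaled, and was treated as a score for printing levels, since identifiers repeat. The tables held 2122 rows for 530 fragments, 347 on 2 or more rows with identical values, and 1 row per fragment was kept. Per the submitters' processing notes, FastQC, cutadapt and Novoalign 2.07.11 were used and hg19, a human build, was listed. The sources used here give neither its role nor the annotation or counting rule.

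Counts were tested with edgeR 4.0.16 (R 4.3.3): filterByExpr, TMM factors, robust quasi-likelihood fitting over the 9 libraries, the contrast ICH minus sham, and Benjamini-Hochberg adjustment over the 455 fragments that passed the filter (threshold 0.05). SEs and 95% intervals restate the unadjusted p. Shares and counts per library were set against the 20 possible assignments (exact permutation test, two-sided), adjusted over 10 measures. DESeq2 1.42.0 and limma 3.58.1 were alternatives. The edgeR fit was run on simulated counts and the permutation test on made-up values, to check the code. The simulated dispersion, the spread between libraries beyond counting, was 0.05, whereas the common dispersion fitted here was 1.018. That run therefore does not show the power of the test in these data. Replicate numbers only name libraries in accession order, and the labels name no batch. Named fragments are the 10 of smallest p in each direction, the 10 most abundant and those listed in 1 group only; others were chosen after their values were seen. The fragments, sets and tests were chosen with earlier results of these data known.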

Additional observations from a re-analysis of the deposited data

How the results depend on the processing

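The counts of 0 fragments past the threshold in either direction became 20 higher and 8 lower with DESeq2, and 0 and 1 with counts multiplied by rows. Without 1 library each, higher fragments numbered 0 to 40 and lower ones 0 to 4, most without sham 3. For sets, DESeq2 gave 14 and 3, and without 1 library each 0 to 11 and 0 to 2, again most without sham 3. The cause was not tested. Other scaling, filters, limma, the 6 libraries alone, zeros at the lowest listed count and, for sets, 3 or more adjoining places kept 0. Joining at 1 place puts all fragments in 1 set and gave no value.

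Most differences in share (ICH minus sham, percentage points of the listed tags) were small, and several changed sign. As a share of the library total they were 1.94 for ranks 1 to 10, 0.34 for ranks 51 to 150, 0.26 for ranks above 150, 0.092 for 1 row and 0.11 for 2 to 4 rows, from -0.30, -0.43, -0.37, -0.31 and -0.85. With ranks from sham they were -1.63, 0.88 and 1.05 for ranks 11 to 50, 51 to 150 and above 150. The largest changes came without AS-tDR-000052, with -5.30 for ranks 1 to 10, from -0.30, and 3.66 for ranks 11 to 50, from 1.10. In that setting they were 0.91 and 0.73 for ranks 51 to 150 and above 150. By rows they were 0.34, 0.63 and -0.97 for 1, 2 to 4 and 5 or more rows. Removing AS-tDR-000052 also gave 12.2 for the effective number of fragments. It gave -1.64 for the listed share, where the library total still held that fragment. The number of fragments above 2 times the minimum differed by -2.67, against 2 at the minimum.

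Leaving out 1 library gave -1.55 to 1.48 for ranks 1 to 10, 0.62 to 1.45 for ranks 11 to 50, -1.32 to 0.32 for ranks 51 to 150 and -1.61 to 0.59 for ranks above 150. It gave -1.03 to 0.36, -2.31 to 0.39 and -0.75 to 3.35 for 1, 2 to 4 and 5 or more rows. The effective number ranged from -15.9 to 5.05, the number of fragments from -6.5 to 13, and the listed share from 3.14 to 6.97. Rank classes were kept as set on all 6 libraries. Of 392 alternative values for 22 named fold changes, 0 reversed and 22 passed the threshold, all with DESeq2 or without sham 3. Leaving out 1 library moved AS-tDR-000243, AS-tDR-006095 and the sets with AS-tDR-000052, AS-tDR-008347 and AS-tDR-008475 by over 1.5 times, and AS-tDR-007703 was at -0.57 without scaling. The median log2 fold change was -0.02 with TMM, -0.23 without scaling, -0.20 with upper-quartile factors and -0.14 with recovered totals. No paired analysis was possible because the labels give no replicate numbers, and those used here follow accession order and pair no libraries. Set shares by library total, shares of sets, of ranks 2 to 10 and of the 44 fragments without a library, and the set without AS-tDR-009298 were added after seeing the data. Fragments under the listing minimum of 134 to 152 TPM could not be compared. Fragments with an unadjusted p under 0.05, 24 higher and 17 lower, numbered 69 and 24 with DESeq2, 52 and 18 with limma and trend, 51 and 27 where each 0 was set to the library minimum, and 4 to 66 and 6 to 25 without 1 library.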
